A study of Mus musculus with 6 samples.

Results

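The genes described here encode the 7 subunits of the Fos and Jun families of the transcription factor AP-1, namely Fos, Fosb, Fosl1, Fosl2, Jun, Junb and Jund. They were taken by symbol from a table of 24391 genes in which all 7 were listed, and all 7 were among the 13366 genes expressed highly enough to be tested. RNA came from Neuro2a, a mouse neuroblastoma cell line, after 18 h in the medium D-MEM(-SG), named so in the labels, which held 10% FBS in both groups. Cultures in the control group (3 libraries) received vehicle and those in the D-serine group (3 libraries) received 5 mM D-serine, the D-enantiomer of serine, which NMDA receptors bind together with glutamate. Poly(A) RNA was sequenced from libraries of a stranded kit. The labels do not say whether the 3 libraries of a group came from separate cultures, so the p-values measure only the spread between these libraries, which may be technical.

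AP-1 is a dimer held together by a leucine zipper, and an adjoining basic region of each subunit grips the DNA. Jun proteins can pair with each other or with Fos proteins, whereas Fos proteins need a Jun partner. Many of these genes are immediate early genes, whose transcripts appear within minutes of a growth factor, stress or synaptic stimulus and decay quickly. In neurons and neuroblastoma cells they are widely read as a record of recent signalling through the ERK, JNK and p38 kinases.

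In the deposited table each of the 3 Jun family genes was a single exon and each of the 4 Fos family genes had 4 exons. Jun was placed on chromosome 4 (94715727 to 94718913, minus strand), Junb on chromosome 8 (87500808 to 87502647, minus) and Jund on chromosome 8 (73221638 to 73224515, plus). Fos was on chromosome 12 (86814851 to 86818219, plus), Fosb on chromosome 7 (19888045 to 19895394, minus), Fosl1 on chromosome 19 (5447698 to 5455938, plus) and Fosl2 on chromosome 5 (32438845 to 32460212, plus). These are the table's own coordinates, whose build it does not name. The submitters' processing notes name GRCm38 and mm10, but the start of only 1 of the 7 genes equals its start in RefSeq's GRCm38 annotation. For Fosl1, 1155 of 1705 exonic bases overlap Ccdc85b on the opposite strand, and the strand setting of the counting is not given in the sources used here, so its counts are uncertain. The other 6 shared no exonic base with another gene of the table.

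The 250 bases before the transcription start were read from RefSeq promoter windows of GRCm38.p6, in which 6 of the 7 genes were found, all except Fosl1. Jun and Fosb are shown because they were the members that differed between the groups, and Fos and Junb because they hold the same short motif as Fosb. The windows are chr4:95052223-95052472 (minus strand) for Jun, chr7:19310046-19310295 (minus) for Fosb, chr12:85473640-85473889 (plus) for Fos and chr8:84978749-84978998 (minus) for Junb, 5′ to 3′ with matches in capitals.
Jun: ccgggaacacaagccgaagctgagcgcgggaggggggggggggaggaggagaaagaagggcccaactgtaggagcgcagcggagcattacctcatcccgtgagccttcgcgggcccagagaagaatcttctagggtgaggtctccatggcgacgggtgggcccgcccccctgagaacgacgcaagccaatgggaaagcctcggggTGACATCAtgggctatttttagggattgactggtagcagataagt
Fosb: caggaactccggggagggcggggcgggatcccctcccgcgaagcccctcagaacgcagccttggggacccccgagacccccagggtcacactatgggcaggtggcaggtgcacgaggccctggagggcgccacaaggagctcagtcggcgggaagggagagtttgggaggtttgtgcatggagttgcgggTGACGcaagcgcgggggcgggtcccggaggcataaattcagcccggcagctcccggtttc
Fos: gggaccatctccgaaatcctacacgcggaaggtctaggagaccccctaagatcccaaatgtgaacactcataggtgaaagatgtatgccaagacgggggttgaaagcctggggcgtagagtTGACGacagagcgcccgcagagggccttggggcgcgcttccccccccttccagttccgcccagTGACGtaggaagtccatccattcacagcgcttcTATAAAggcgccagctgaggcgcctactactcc
Junb: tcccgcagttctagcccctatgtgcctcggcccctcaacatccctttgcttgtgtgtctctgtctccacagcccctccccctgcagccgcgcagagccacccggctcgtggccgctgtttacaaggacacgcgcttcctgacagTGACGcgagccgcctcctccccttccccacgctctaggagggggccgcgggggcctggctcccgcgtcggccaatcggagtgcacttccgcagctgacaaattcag
The capitals mark TGACATCA in Jun, TGACG in Fosb, Fos and Junb, and TATAAA in Fos. Both strands were searched for TGACTCA (the classical AP-1 element), TGACGTCA (the cyclic AMP response element), the Jun variant TGACATCA, the half-site TGACG, the TATA box as TATAAA and the CArG box bound by SRF. The half-site is contained in TGACGTCA. TGACATCA lay 45 to 38 bases before the Jun start, and 2.93% of the 32851 promoter windows of the mouse table hold it. TGACG lay 60 to 56 bases before the Fosb start, 106 to 102 before the Junb start, and at 129 to 125 and 66 to 62 before the Fos start, against 17.8% of all windows that hold at least 1 copy. That share makes no allowance for base content, as G and C made up 68.8% (Fosb), 66.4% (Junb) and 58.4% (Fos), beside a median of 52.4% over all windows. None of the 6 windows holds TGACTCA (4.46% of all windows), TGACGTCA (1.55%) or a CArG box (1.47%). Bases more than 250 before the start were not searched, so sites farther upstream, CArG boxes included, would be missed. Fosl2 and Jund hold no match to any of the motifs searched. A match describes these letters only.

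The libraries held 32518483 to 40024265 counts in total. The defining neuroblast markers were present, since 14 of 17 exceeded a mean of 1 CPM (counts scaled to the library size), among them Hand2 and Chgb, while others, such as Nefl and Nefm, did not pass the filter on low counts. Summed, they reached 1998 to 2115 CPM in the control libraries and 2132 to 2275 CPM in the D-serine libraries, and their part in the results below was not tested. Fibroblast markers summed to 25.2 to 29.4 CPM in the former and 19.0 to 25.5 CPM in the latter (2 of 9 above 1 CPM; Col3a1, Lum and Thy1 at 0). Macrophage markers summed to 1.26 to 2.29 and 1.34 to 1.90 CPM (1 of 10 above 1 CPM; Adgre1, C1qa and C1qb at 0), and glial markers to 14.7 to 16.3 and 14.6 to 15.7 CPM (2 of 8 above 1 CPM; Aqp4 at 0). D-serine replicate 1 stood apart from the other libraries. Compared gene by gene with the other D-serine libraries, it gave a chi-square per degree of freedom of 17.7 and 13.9, where the other pairs within a group gave 3.88 to 6.54. The deviation of its log2 CPM from the gene means over the 6 libraries had a slope of -0.072 per doubling of gene length, where the other libraries had -0.0040 to 0.036.

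D-serine and control were compared to find which AP-1 transcripts differ when D-serine is present. Jun was higher with D-serine and Fosb was lower, each by about the same step on the log2 scale, and the other 5 genes did not pass the test. In both genes all D-serine libraries lay on one side of all controls, which is also true of 32.9% of all tested genes. The 2 of 7 genes called stand against 9.74% of all tested genes that passed the same test (adjusted p under 0.05 in edgeR's quasi-likelihood test with Benjamini-Hochberg adjustment), 4.84% being higher and 4.90% lower. A difference in CPM is a difference in the share of poly(A) RNA, and fewer cells expressing a gene cannot be told apart from less of its RNA per cell.

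**Figure D1:**
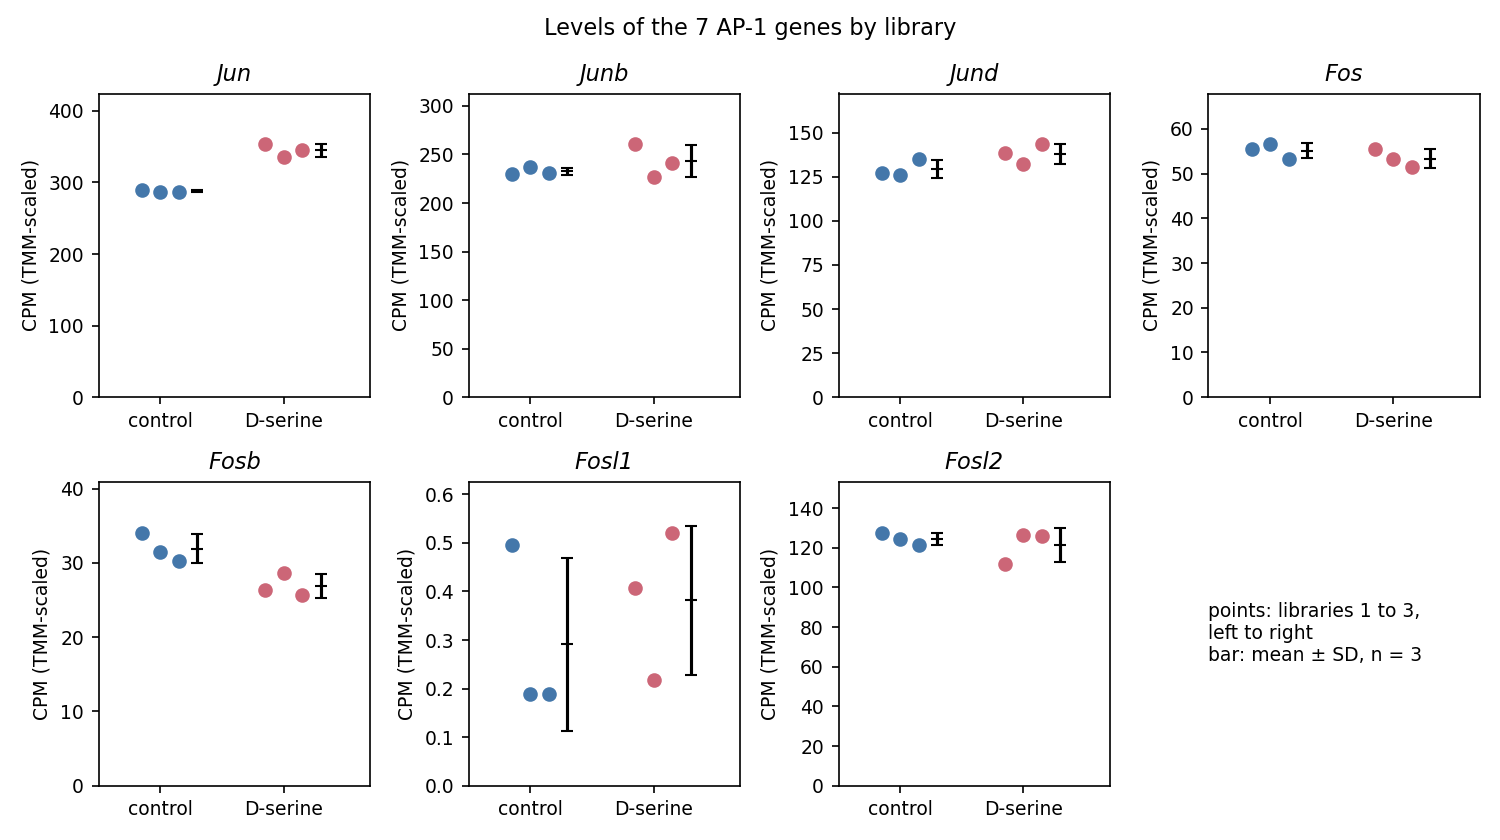
TMM-scaled CPM of each gene (vertical axis, linear, from 0, a separate scale per gene) in the control and D-serine libraries; points are libraries 1 to 3 and the bar is the mean ± SD (n = 3). The D-serine libraries sit above all control libraries for Jun (336 to 354 against 286 to 289 CPM) and below them for Fosb (25.6 to 28.7 against 30.2 to 34.1 CPM), and the groups overlap in the other 5 panels.

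Values by library are given in replicate order throughout. Jun encodes c-Jun, the strongest transcriptional activator of the Jun family and the main nuclear substrate of JNK. It stood at 289, 287 and 286 CPM in the 3 control libraries and at 354, 336 and 346 CPM in the 3 D-serine libraries. All 3 D-serine libraries were above all 3 controls, which lay close together. The mean rose from 288 ± 1.57 to 345 ± 9.0 CPM (SD over 3 libraries each). This is a log2 fold change of 0.26 (SE 0.040, 95% interval 0.18 to 0.35, edgeR adjusted p = 0.0055), or 1.2-fold. By p-value Jun was 40th of the 13366 genes tested. Without control replicate 2, where 0.501% of all tested genes passed, its adjusted p was 0.0501 at a log2 fold change of 0.26, and it passed when any of the other 5 libraries was left out.

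Junb, which often restrains c-Jun at shared sites, had 229, 237 and 231 CPM in the 3 control libraries and 261, 227 and 242 CPM in the 3 D-serine libraries. The highest and the lowest value both came from D-serine libraries, so the groups overlapped. Its log2 fold change was 0.064 (SE 0.051, 95% interval -0.045 to 0.17, edgeR adjusted p = 0.434). Without D-serine replicate 1, its highest library, the value was 0.011, and with each library's trend on gene length removed it was 0.025.

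Jund, the steadily expressed member of the family, had 127, 126 and 135 CPM in the 3 control libraries and 138, 132 and 144 CPM in the 3 D-serine libraries. Control replicate 3 lay among the D-serine libraries. The log2 fold change was 0.092 (SE 0.048, 95% interval -0.011 to 0.19, edgeR adjusted p = 0.223), so a rise of up to 1.14-fold lies within the interval.

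Fosb encodes FosB, the subunit whose truncated splice form ΔFosB is known for building up in neurons after repeated stimulation. The table counts per gene and does not separate the forms. Fosb stood at 34.1, 31.5 and 30.2 CPM in the 3 control libraries and at 26.4, 28.7 and 25.6 CPM in the 3 D-serine libraries. Every D-serine library was below every control library, with the nearest pair 28.7 and 30.2 CPM. The mean fell from 31.9 ± 1.98 to 26.9 ± 1.59 CPM (SD over 3 libraries each). This is a log2 fold change of -0.25 (SE 0.069, 95% interval -0.39 to -0.097, edgeR adjusted p = 0.0418), or 0.844-fold. The call was not stable and held in 9 of 16 alternatives. The adjusted p was 0.167, 0.118 or 0.0620 when control replicate 1, 2 or 3 was left out, and 0.138 when D-serine replicate 3 was. In these fits, in that order, 0.921%, 0.501%, 3.34% and 2.15% of all tested genes passed, beside 9.74% in the reported fit. With upper quartile and library-total scaling the adjusted p of Fosb was 0.0619 and 0.0643, where 9.92% and 10.1% of all tested genes passed.

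Fos encodes c-Fos, the classical immediate early partner of c-Jun. It had 55.6, 56.6 and 53.3 CPM in the 3 control libraries and 55.4, 53.3 and 51.4 CPM in the 3 D-serine libraries. The ranges overlapped for most of their width. The log2 fold change was -0.048 (SE 0.053, 95% interval -0.16 to 0.066, edgeR adjusted p = 0.590), an interval that holds folds from 0.894 to 1.05.

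Fosl2 encodes Fra-2, a Fos protein without the strong activation domain of c-Fos. Its levels were 128, 125 and 121 CPM in the 3 control libraries and 112, 127 and 126 CPM in the 3 D-serine libraries. D-serine replicate 1 was the lowest of all 6 libraries, and the other D-serine libraries lay within the control range. The log2 fold change was -0.036 (SE 0.053, 95% interval -0.15 to 0.078, edgeR adjusted p = 0.697). Its sign turned to 0.020 without D-serine replicate 1 and to 0.034 with the length trend removed. Fosl2 has the longest exons of the family (5863 bases) and Junb, at 1840 bases, is among the shortest. In D-serine replicate 1 Fosl2 was at its lowest and Junb at its highest. Jun was also at its highest there, and Fos, Fosb, Fosl1 and Jund were at neither end of their ranges. The part of gene length in these values was not tested.

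Fosl1 encodes Fra-1, usually a marker of sustained ERK signalling and of invasive epithelial tumours. It was barely detected, with 16, 7 and 7 counts in the 3 control libraries and 16, 8 and 21 counts in the 3 D-serine libraries. The log2 fold change of 0.43 had a 95% interval from -0.70 to 1.57 (edgeR adjusted p = 0.629), so folds from 0.614 to 2.96 could not be told apart at this depth.

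**Figure D2:**
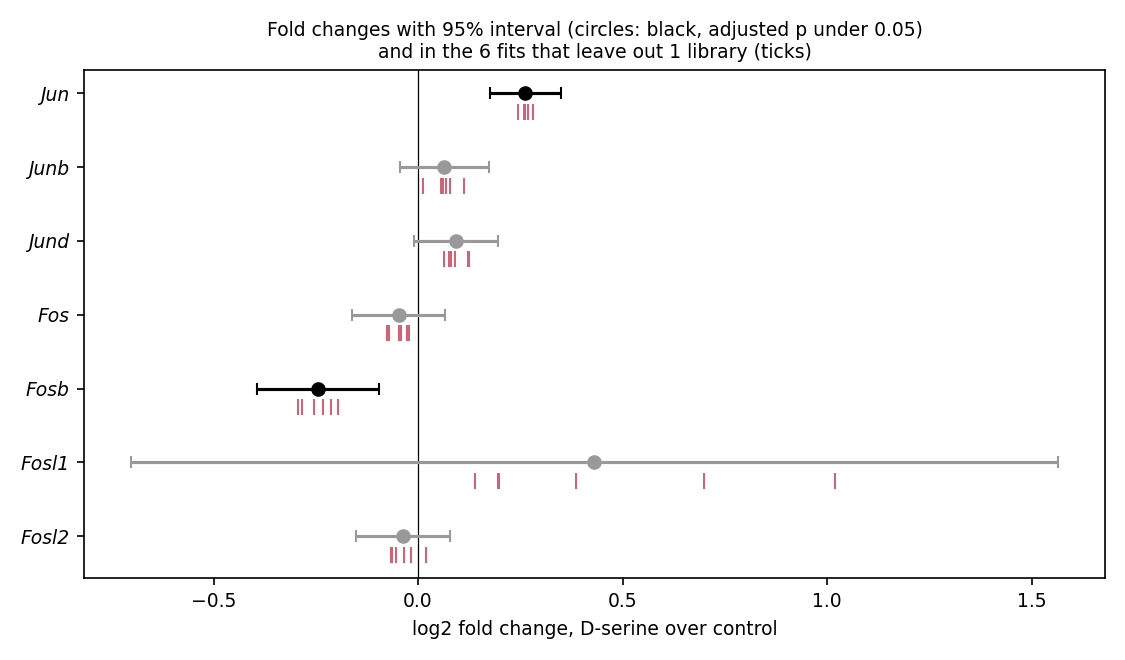
Log2 fold change of D-serine over control (horizontal axis) for each gene, with its 95% interval; black circles passed the test, grey circles did not, and red ticks are the fits that each left out 1 library. Jun (0.26) and Fosb (-0.25) lie on opposite sides of 0 with intervals that do not reach it, and the ticks of Fosl1 spread from 0.14 to 1.02.

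An effect that passes in one gene and misses in another does not show that the genes differ, and that difference was not tested. Ratios of raw counts within a library, which no library scaling can change, describe it. Each ratio given holds Jun or Fosb, whose groups were already seen not to overlap, so the ratios restate those values in another form. The ratio of Jun to Fosb counts was 8.49, 9.13 and 9.48 in the 3 control libraries and 13.4, 11.7 and 13.5 in the 3 D-serine libraries, a log2 difference of 0.51. The ratio of Jun to Junb was 1.24 ± 0.024 with vehicle and 1.42 ± 0.061 with D-serine, and that of Jun to Jund was 2.22 ± 0.092 and 2.50 ± 0.080 (SD over 3 libraries each), with log2 differences of 0.20 and 0.17. The log2 difference was 0.31 for Jun to Fos and 0.30 for Jun to Fosl2, and 0.20 for Fos to Fosb and 0.21 for Fosl2 to Fosb.

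Levels of different genes were compared per length, as CPM per kilobase of exon. In control the order was Junb (126 ± 2.09), Jun (90.2 ± 0.49), Jund (45.0 ± 1.73), Fos (26.4 ± 0.80), Fosl2 (21.2 ± 0.54), Fosb (8.45 ± 0.53) and Fosl1 (0.171 ± 0.104; SD, n = 3). No neighbours in this order overlapped in any of the 6 libraries, and the order was the same with D-serine. By mean level per kilobase over all libraries Junb was above 96.3% of the tested genes, Jun above 94.7%, Jund above 86.4%, Fos above 74.9%, Fosl2 above 69.6%, Fosb above 44.4% and Fosl1 above 4.56%. All 3 Jun family transcripts were thus in the upper part of the expressed genes, and Fosl1 was near the bottom.

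Of the summed AP-1 transcripts per kilobase, the Jun family made up 81.8% to 82.9% in the control libraries and 83.4% to 85.1% in the D-serine libraries. The share of Jun alone was 28.2% to 28.6% in control and 31.4% to 32.0% with D-serine, and that of Fosb 2.52% to 2.85% and 1.98% to 2.31%. Junb kept the largest share in every library (39.3% to 40.3% in control, 37.5% to 40.1% with D-serine). The ratio of the summed Jun family to the summed Fos family was 4.50, 4.63 and 4.84 in the 3 control libraries and 5.70, 5.02 and 5.45 in the 3 D-serine libraries. The Jun family sum was 260 to 263 CPM per kilobase in control and 275 to 301 with D-serine, whereas the Fos family sums overlapped (54.3 to 57.6 and 52.8 to 54.8). Within the Fos family, the share of Fosb was 14.7% to 15.7% in control and 12.8% to 13.9% with D-serine. These are transcript shares and do not measure dimers. Since Jun and Fosb differed, the shares follow from the values above and carry no test of their own.

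**Figure D3:**
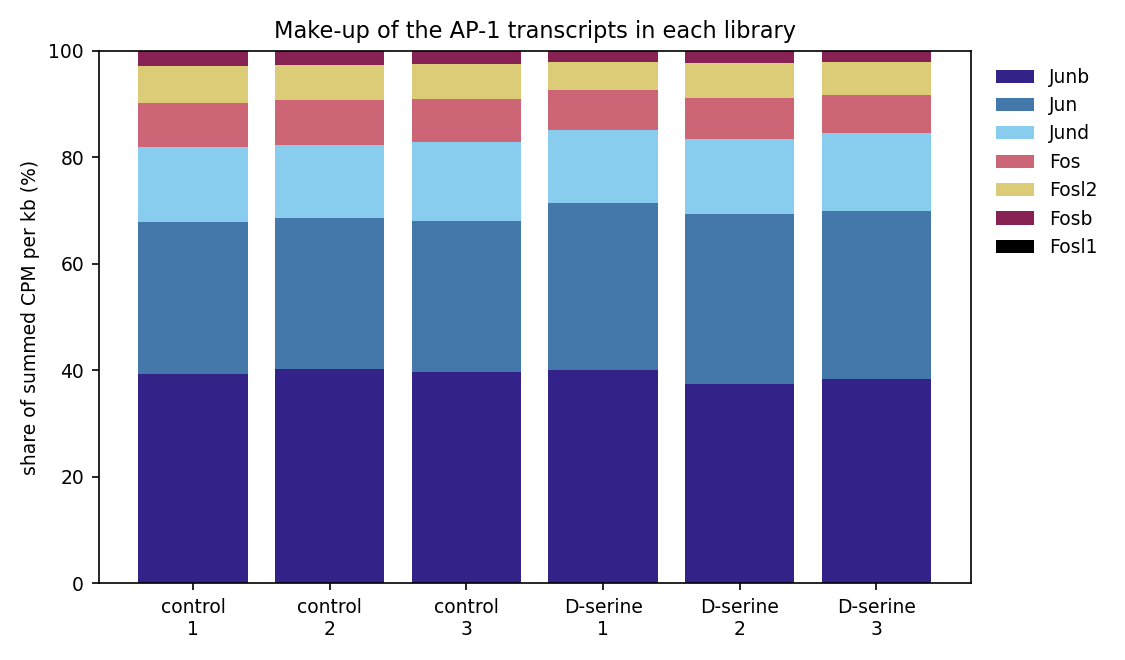
Share of each gene in the summed CPM per kilobase of the 7 AP-1 genes (vertical axis, percent) in each library, stacked. The Jun band is wider in the D-serine libraries (31.4% to 32.0%) than in the control libraries (28.2% to 28.6%), and Fosl1, at under 0.1%, is too thin to see.

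The 3 Jun family genes share a structure without introns. Of the 13366 tested genes, 496 had 1 exon in the table, and 7.86% of them passed the test (31 higher, 8 lower, median log2 fold change 0.096), against 9.81% of the genes with more exons (616 higher, 647 lower, median 0.0036). Jun, Junb and Jund, at 0.26, 0.064 and 0.092, can be read beside that median. The pentamer ATTTA, a core of AU-rich elements that shorten the life of many immediate early transcripts, was counted in the longest protein-coding GENCODE transcript of each gene. Fos holds 4 copies (1.90 per kilobase, a higher density than in 85.9% of the tested genes with such a transcript), Jun 4 (1.25), Fosl2 8 (1.22), Junb 2 (1.11), Fosb 3 (0.793), Jund 1 (0.60) and Fosl1 1 (0.536), where the median of tested genes was 0.764. The longer TTATTTATT occurs in Fos and Fosl2 and in 8.79% of the tested genes. The ATTTA densities of Jun and Fosb lie between those of other members, and neither holds TTATTTATT. Both counts cover the whole transcript, coding part included, and a link to the changes of Jun and Fosb was not tested.

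The nearest gene of the table on each side of a member was also followed. Around Jun, Mysm1 (69935 bases away) had a log2 fold change of -0.11 (edgeR adjusted p = 0.216) and Fggy (505284 bases away) 0.26 (adjusted p = 0.0719). Next to Fosb, Rtn2 (6531 bases) had 0.087 (adjusted p = 0.340) and Ercc1 (35025 bases) -0.080 (adjusted p = 0.521). Neither called member thus had a flanking gene past the threshold. Jdp2, which encodes a bZIP partner that represses AP-1 sites, lies 121835 bases beyond Fos and had 42.8 ± 2.92 CPM with vehicle and 36.2 ± 3.30 CPM with D-serine (log2 fold change -0.24, adjusted p = 0.0547). Bre, 51732 bases from Fosl2, was higher (0.23, edgeR adjusted p = 0.0495). It passed in 2 of the 6 fits that left out a library. The call ended when control replicate 1 (adjusted p = 0.197), control replicate 2, D-serine replicate 1 or D-serine replicate 3 was left out. Ercc1 shares 106 exonic bases with Cd3eap on the opposite strand.

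The 5 genes whose log2 CPM was most like that of Jun over the 6 libraries, among 8885 genes with a mean of at least 10 CPM, were Fbxw4 (Pearson r = 0.999), Myc (0.997), Psmc1 (0.997), Marcks (0.996) and Iqcb1 (0.996). Those most like Fosb were Fignl2 (0.999), Gigyf1 (0.995), Sin3a (0.995), Paxip1 (0.993) and Asph (0.993). Such values are a description over 6 libraries that share the group difference and each library's depth. Myc, itself an immediate early gene, rose by 0.25 on the log2 scale, with means of 341 ± 2.18 and 404 ± 13.4 CPM (SD, n = 3; edgeR adjusted p = 0.0077; 0.0548 without control replicate 2).

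The genes that act around AP-1 were described from 9 lists with 172 genes, of which 142 were tested and 16 (11.3%) passed, 5 higher and 11 lower, beside 9.74% of all tested genes. The median log2 fold change over the 142 was -0.042, where that of all tested genes was 0.0053. No list median, here or below, was adjusted for gene length, on which D-serine replicate 1 had a slope of -0.072. The part of that slope in the medians was not tested. All 16 had the same sign under each of the 16 alternatives. In all 16 the groups did not overlap in CPM, as in 32.9% of all tested genes. Their signs in the fits without 1 library were therefore fixed and show no stability. The number of the 16 still past the threshold depended on the libraries used. It was 1 when control replicate 2 was left out, 2 for control replicate 1, 8 for control replicate 3, 4 for D-serine replicate 3 and 14 for either of the other D-serine libraries. Of all tested genes, 0.501%, 0.921%, 3.34% and 2.15% passed in the first 4 of these fits, so the fall was not particular to the lists. Without D-serine replicate 1 or 2 that share was 12.5% or 11.6%. Dusp1 passed in 0 of these 6 fits. None of the 16 shared exonic bases with another gene of the table.

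Kinases that phosphorylate the subunits were followed first. In the JNK module, which activates c-Jun, 0 of 18 genes passed edgeR's test. An unadjusted p under 0.05 was found for 5 of the 18, beside 28.2% of all tested genes, DESeq2 called 1 (12.3% of all genes) and limma-voom 0 (9.43%), so these counts do not set the list apart. Of the 18, 15 had a negative log2 fold change. Their median was -0.076, beside 0.0053 over all tested genes, with no adjustment for gene length. The part of the length slope of D-serine replicate 1 in these signs was not tested. In the ERK module, which drives Fos transcription, 4 of 20 passed (20.0%, beside 9.74% of all tested genes). The guanine nucleotide exchange factors Sos1 and Sos2, which load Ras with GTP, fell by 0.22 and 0.20 on the log2 scale (edgeR adjusted p = 0.0261 and 0.0210), and their adaptor Grb2 fell by 0.15 (adjusted p = 0.0388). With each library's length trend removed, Sos1, whose exons span 8919 bases, had a log2 fold change of -0.091 and lost its call (adjusted p = 0.126), and Sos2 had -0.13 (adjusted p = 0.0185). D-serine replicate 1, the library with the slope on length, was the lowest for Sos1 (82.5 CPM), and without it the value was -0.17 (adjusted p = 0.0168). The Ras gene Nras rose by 0.17 (adjusted p = 0.0236). In the p38 module 0 of 6 tested genes passed edgeR's test, DESeq2 and limma-voom called 0, and 0 had an unadjusted p under 0.05.

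Among the factors that act on the members' promoters, 4 of 17 passed (23.5%, beside 9.74% of all tested genes). The list median was -0.15, with no adjustment for gene length, and the part of the length slope of D-serine replicate 1 in it was not tested. Stat3, a cytokine-activated factor, fell from 145 ± 3.41 to 124 ± 5.12 CPM (SD over 3 libraries each, log2 fold change -0.23, edgeR adjusted p = 0.0133). The SRF partner Elk1, a target of ERK, fell by 0.25 on the log2 scale (adjusted p = 0.0425) and the related Elk3 rose by 0.21 (adjusted p = 0.0362). Mef2d, an activity-regulated factor, fell by 0.23 (adjusted p = 0.0428). Elk1 and Mef2d, with Grb2, lost their calls with upper quartile or library-total scaling.

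In the list on protein turnover, 2 of 10 genes passed (20.0%, beside 9.74% of all tested genes), both lower. Senp1, a SUMO protease, fell by 0.24 on the log2 scale (edgeR adjusted p = 0.0142), and by 0.16 with the length trend removed (adjusted p = 0.0099). In the list on mRNA turnover, 1 of 11 passed (9.09%), namely Khsrp, whose protein binds AU-rich elements, which fell by 0.25 (adjusted p = 0.0119).

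Of 22 genes for other bZIP proteins that can pair with Fos or Jun, 16 were tested and 0 passed edgeR's test. Of the 16, 5 had an unadjusted p under 0.05, DESeq2 called 2 and limma-voom 0, beside 28.2%, 12.3% and 9.43% of all tested genes, so here too the counts lie near those of all genes or below. The nearest were Atf4 at 0.17 (adjusted p = 0.0527) and Jdp2. Of 40 genes known as AP-1 targets in various cell types, only 21 were expressed highly enough to be tested and 2 passed (9.52%), a share near that of all genes. Ccnd1, the cyclin of G1 phase, rose from 701 ± 12.6 to 775 ± 8.79 CPM (SD over 3 libraries each, log2 fold change 0.14, edgeR adjusted p = 0.0309), and Vegfa, an angiogenic growth factor, fell from 468 ± 11.3 to 414 ± 13.5 CPM (-0.18, adjusted p = 0.0223). The target list thus moved in no single direction among its called genes. Of its 21 tested genes, 15 had a positive log2 fold change (median 0.059, beside 0.0053 over all tested genes). Of 24 other immediate early genes tested, 3 passed (12.5%, beside 9.74% of all tested genes). Besides Myc these were the phosphatase gene Dusp1, higher by 0.21 (adjusted p = 0.0449), and the zinc finger gene Egr1, which fell by 0.24 (adjusted p = 0.0127).

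**Figure D4:**
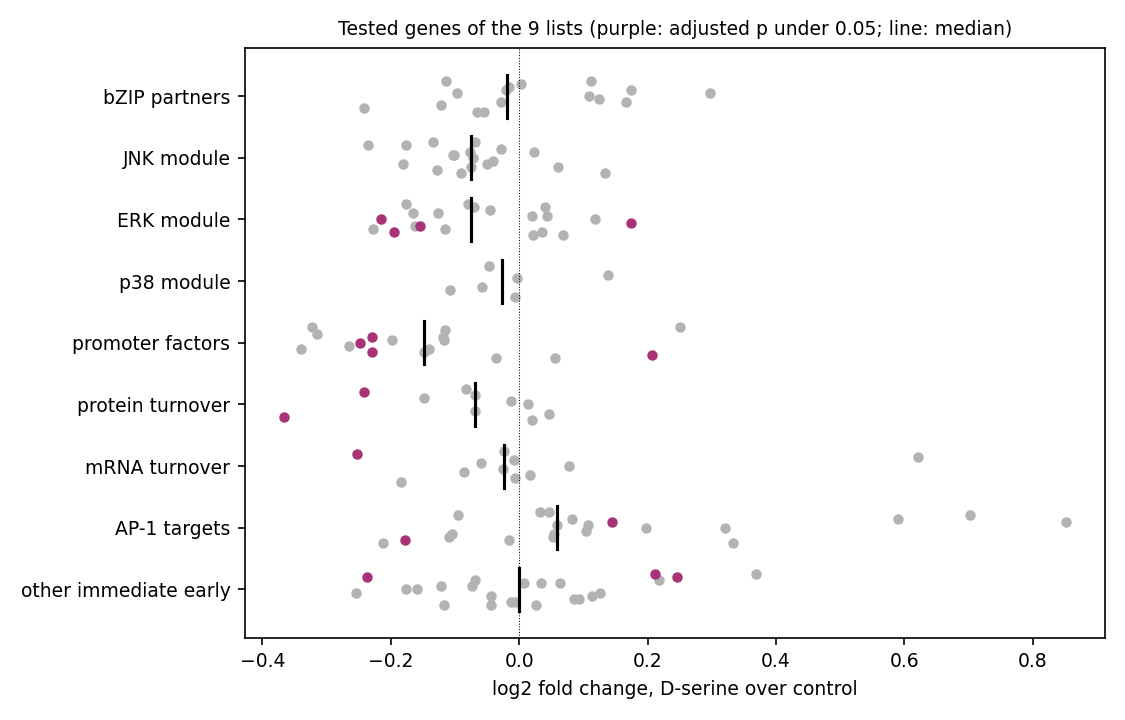
Log2 fold change of D-serine over control (horizontal axis) of each tested gene in the 9 lists (vertical axis); purple points passed the test, grey points did not, and the line is the list's median. The medians, not adjusted for gene length, run from -0.15 for the promoter factors to 0.059 for the AP-1 targets.

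**Figure D5:**
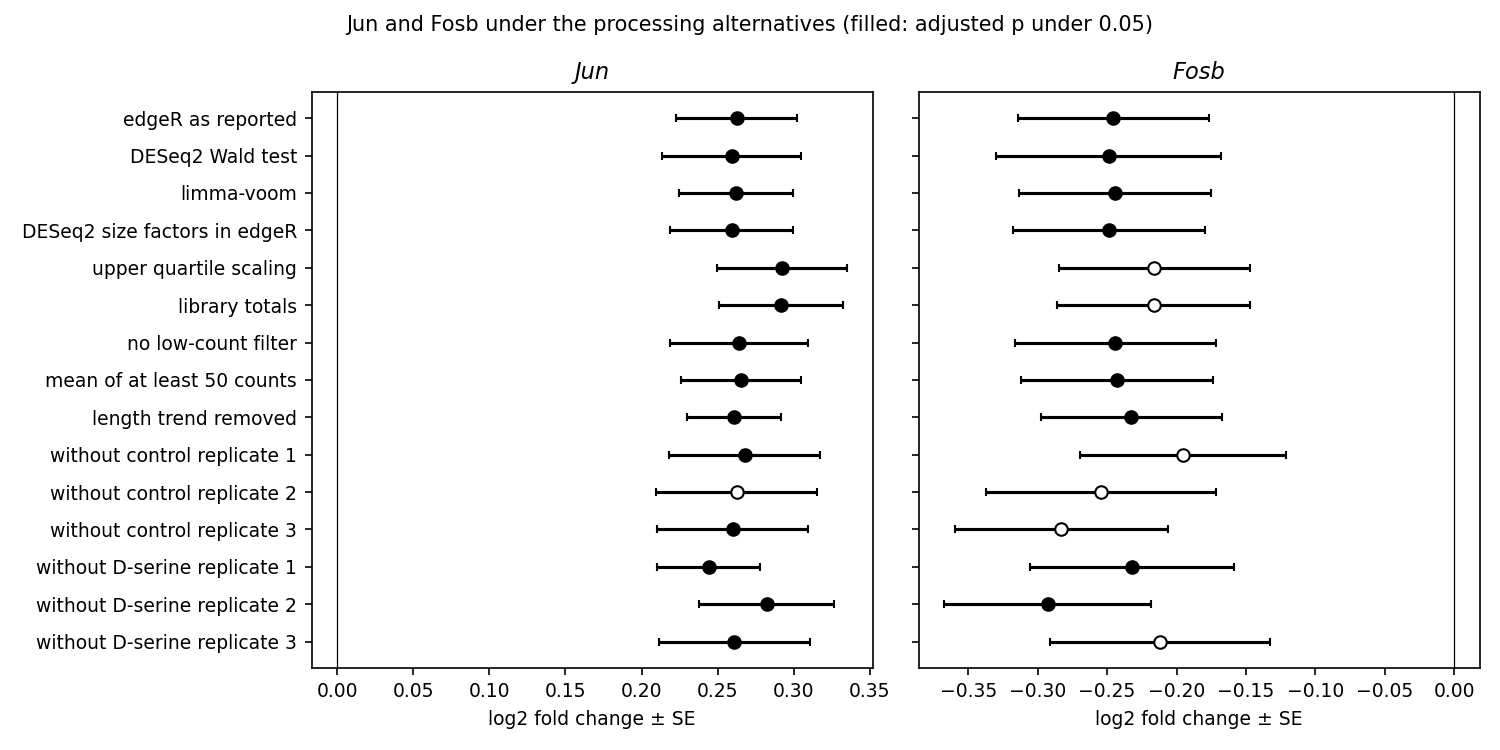
Log2 fold change ± SE (horizontal axis) of Jun and Fosb as reported and under the 14 alternatives that hold no block for the replicate number (vertical axis); filled points have an adjusted p under 0.05. Jun lies between 0.24 and 0.29 and is open only without control replicate 2, whereas Fosb lies between -0.29 and -0.20 and, among those drawn, is open under 2 scalings and when any of 4 libraries is left out.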

How the data were processed

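Raw gene counts, exon coordinates and summed exon lengths were deposited as 1 table in featureCounts columns, per the file headers. The submitters' processing notes name bcl2fastq, Trim Galore, HISAT2, Subread featureCounts and DESeq2; versions, strand setting and treatment of multi-mapping reads are not given in the sources used here. Columns named vehicle were matched to the control samples of the same number. The deposited counts were tested with edgeR 4.0.16 in R 4.3.3: genes kept by filterByExpr, TMM scaling, quasi-likelihood F test of D-serine against control with all 6 libraries and no covariate, two-sided, Benjamini-Hochberg over 13366 genes, threshold 0.05. The SE is the log2 fold change divided by the square root of F, and its interval uses the same test's degrees of freedom. CPM used TMM-adjusted library sizes; log2 CPM used a prior count of 2. The scripts were tested on simulated data. Alternatives were DESeq2 1.42.0, voom in limma 3.58.1, other scalings and filters, a block for the replicate number, a fit without each library's length trend (spline, 5 degrees of freedom, centred so that the scale is kept) and leaving out each library.

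Named were all 7 members, their flanking genes in the table that were tested (of which not all are reported), list genes past the threshold (at most 4 a list, some of which are not reported here), and the 5 genes most correlated with each called member. Atf4 was named after its value was seen. The members and lists were chosen with earlier results of these data known.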

Additional observations from a re-analysis of the deposited data

How the results depend on the processing

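Jun kept its direction in all 16 alternatives and passed in 15 of them; Fosb kept its direction in all 16 and passed in 9. Because their groups do not overlap, the signs in the fits without 1 library are fixed. Neither Fos, Fosl2, Junb nor Jund passed in any of 16, nor Fosl1 in any of the 15 that gave a value (the minimum mean of 50 counts removed it, and DESeq2 gave it no adjusted p). Fosl2 changed sign with the length trend removed (0.034), with that and the replicate block (0.034) and without D-serine replicate 1 (0.020, in a range of -0.067 to 0.020 over the fits without 1 library). Of the members, 2 passed as reported, 1 under upper quartile scaling, 1 with library totals, 1 with the replicate block, where Fosb had an adjusted p of 0.0764, and 0 to 2 in the fits that left out 1 library. Of the list genes, 16 passed as reported, 30 without a filter on low counts, 31 with the length trend removed, 27 with that and the replicate block, 5 with the replicate block alone and 1 to 24 without 1 library. Over all genes 1302 passed, against 298 with the replicate block, 2043 with the length trend removed and 68 to 1699 without 1 library. Upper quartile scaling called 914 higher and 412 lower genes, where 647 and 655 were reported. The cause was not tested. In the fits that leave out a library, a group of 2 is assumed to vary like the other. Same-numbered libraries of the groups did not deviate together (correlations of -0.069, 0.020 and -0.019), and only 1 of the 3 control libraries correlated best with its own number, so the numbers were not taken as pairs. The counts of Fosl1, at most 21 a library, were too few to show a change of the size seen in Jun.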
